A study of Homo sapiens with 22 samples.

Results

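The receptor tyrosine kinases PDGFRA, KDR, EGFR and AXL were followed across 11 established human glioblastoma cell lines. They were chosen by name, and these 4 genes are 4 of 7604 gene entries in the 2 deposited tables. PDGFRA and KDR are listed in a table of 2221 genes for 8 lines (U-138MG, U-87MG, T98G, SNU-1105, LN-18, KNS-42, LN-229, KALS-1), and EGFR and AXL in another of 5383 genes that covers AM-38, A-172 and SNU-466, called the 3 lines below. None of the 4 is listed in both tables, so the levels of EGFR and AXL in the 8 lines and of PDGFRA and KDR in the 3 lines were not analysed here. Poly(A) RNA of untreated cells was sequenced in 2 strand-specific libraries per line, 22 in all. The medium was DMEM for A-172, KNS-42, LN-18 and LN-229, EMEM for AM-38, T98G, U-138MG and U-87MG, and RPMI for KALS-1, SNU-466 and SNU-1105. Serum was at 20% for AM-38 and at 10% for the other lines, so medium and line cannot be told apart. Each line is a single established tumour line, and the labels do not say whether its 2 libraries are from separate cultures, so the p-values measure only a spread between libraries that may be technical.

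Receptor tyrosine kinases span the cell membrane, bind a growth factor outside the cell and phosphorylate tyrosines inside it, which starts RAS-MAP kinase and PI3-kinase signalling. EGFR is the receptor for EGF, TGF-alpha and related ligands and is the receptor most often amplified in glioblastoma. PDGFRA, the alpha receptor for platelet-derived growth factors, marks oligodendrocyte precursors and is amplified in a smaller group of these tumours. KDR, also called VEGFR2, is the main signalling receptor for VEGF on endothelial cells, and AXL is a TAM family receptor bound by GAS6.

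Library totals ran from 17117491 to 21011463 reads in the 8 lines and from 16958669 to 21213215 in the 3 lines. A gene with 0 reads in a library may hold up to 3 reads, which is 0.141 to 0.177 CPM (counts relative to the total of the library). Such floors, and the counting intervals below, cover counting error only. The 2 libraries of T98G agreed within 1.5-fold for 53.3% of the listed genes with a mean of 10 reads or more and those of SNU-1105 for 67.3%, against at least 82.1% in each of the other 9 lines. How the listed genes were chosen is not stated, but the tables are rich in differences between lines. Mean CPM differed at least 2-fold between 3 lines (T98G, LN-18, KALS-1) and the remaining 5 for 99.3% of the genes of the first table, PDGFRA and KDR among them. It differed at least 2-fold between SNU-466 and the other lines for 93.9% of the genes of the second table, EGFR and AXL among them. The presence of a member in a table is therefore not independent of its levels, and counts of calls are set beside the share of all tested genes that was called alike.

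PDGFRA (ENSG00000134853) and KDR (ENSG00000128052) lie close together on chromosome 4, and differed in their order of lines. In GENCODE 29 on GRCh38, PDGFRA spans chr4:54229097-54298247 on the plus strand and KDR chr4:55078259-55125595 on the minus strand, with starts 896.498 kb apart. EGFR (ENSG00000146648) spans chr7:55019021-55211628 and AXL (ENSG00000167601) chr19:41219203-41261766, both on the plus strand. The bases before the start of PDGFRA and KDR are shown because this pair of neighbours is high in different lines. Each run is the 250 bases before the 5′-most RefSeq start (GRCh38.p14), 5′ to 3′ on the gene's strand, at chr4:54229043-54229292 for PDGFRA and chr4:55125596-55125845 for KDR, and capitals mark GGGCGG, the core of a GC box, or its reverse complement CCGCCC.
PDGFRA: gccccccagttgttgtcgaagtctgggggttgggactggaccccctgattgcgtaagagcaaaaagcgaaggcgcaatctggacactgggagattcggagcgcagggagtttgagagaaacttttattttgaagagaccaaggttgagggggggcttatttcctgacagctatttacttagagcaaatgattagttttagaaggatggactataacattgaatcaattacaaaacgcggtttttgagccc
KDR: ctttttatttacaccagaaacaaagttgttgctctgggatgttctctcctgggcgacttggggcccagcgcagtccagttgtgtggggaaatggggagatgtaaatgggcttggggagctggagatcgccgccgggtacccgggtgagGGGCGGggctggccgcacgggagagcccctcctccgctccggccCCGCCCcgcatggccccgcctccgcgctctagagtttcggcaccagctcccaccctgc
The PDGFRA window has 46.8% G and C and no GGGCGG on either strand, and the GENCODE start of PDGFRA falls inside it. The KDR window has 65.2% G and C and 2 matches, which begin 102 and 58 bases before the start. The windows of EGFR (73.6% G and C) and AXL (64.4%), likewise 250 bases long, each hold 2 matches. Of 35116 RefSeq promoter windows of that length, 42.6% hold GGGCGG on either strand, and the median G and C content is 58%. TATAAA was in none of the 4 windows on either strand and in 10.7% of all. A match is only a match of letters.

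PDGFRA was high in U-138MG, intermediate in KNS-42 and LN-18 and near 0 in KALS-1. U-138MG had 1168 and 1192 CPM in its 2 libraries and KNS-42 had 324 and 379 CPM. LN-18 followed with 76.1 and 76.3 CPM. These 3 lines stood apart from one another and from the rest, with no overlap between libraries. LN-229 had 20.0 and 15.7 CPM, SNU-1105 had 14.8 and 13.3 CPM and U-87MG had 9.27 and 16.2 CPM. The libraries of U-87MG spanned those of SNU-1105 and overlapped those of LN-229. T98G had 2.81 and 6.78 CPM (53 and 116 reads), and KALS-1 had 0.117 and 0.459 CPM (2 and 9 reads). Every library of the other 7 lines thus held more PDGFRA than either library of KALS-1. In bulk RNA, fewer cells with the transcript and less transcript per cell cannot be told apart.

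Mean PDGFRA was 1179.9 ± 17.3 CPM in U-138MG and 352 ± 39.2 CPM in KNS-42 (SD, n = 2 for each mean). It was 76.2 ± 0.116 CPM in LN-18, 17.9 ± 3.07 CPM in LN-229, 14.0 ± 1.04 CPM in SNU-1105 and 12.7 ± 4.91 CPM in U-87MG. It was 4.79 ± 2.81 CPM in T98G and 0.288 ± 0.242 CPM in KALS-1. A gene was called where edgeR's quasi-likelihood test gave a Benjamini-Hochberg adjusted p under 0.05 and lines were at least 2-fold apart. PDGFRA and KDR were both called for a difference among the 8 lines (adjusted p = 2.03e-14 and 1.28e-14), as were 99.7% of the 2095 tested genes. PDGFRA differed in 25 of 28 pairs of lines, where the median tested gene differed in 16 and 57.8% of all gene and pair combinations were called. PDGFRA was called higher in U-138MG than in every other line, as were 4.25% of tested genes, and lower in KALS-1 than in every other line, as were 2.00%.

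Along its order of lines, PDGFRA was higher in U-138MG than in KNS-42 by 1.75 on the log2 scale (SE 0.31, edgeR adjusted p = 7.28e-05). The steps from KNS-42 to LN-18 (2.21, SE 0.32, edgeR adjusted p = 6.36e-06) and from LN-18 to LN-229 (2.09, SE 0.32, edgeR adjusted p = 1.36e-05) were called too. For these 3 pairs of lines, 53.3%, 71.0% and 68.6% of all tested genes were called. LN-229, SNU-1105 and U-87MG were not called apart in PDGFRA (edgeR adjusted p from 0.191 to 0.732). U-87MG lay above T98G by 1.42 (SE 0.34, edgeR adjusted p = 0.00123), a call that was lost at 0.63 with TMM scaling, at 0.91 without T98G replicate 1 and at 0.96 without U-87MG replicate 2. It was 2.18 without T98G replicate 2. T98G lay above KALS-1 by 3.97 (SE 0.51, edgeR adjusted p = 1.48e-06). That value was 3.36 without KALS-1 replicate 1, 5.28 without KALS-1 replicate 2 and 3.21 without T98G replicate 2, and was called in each case. Of all tested genes, 68.4% were called between U-87MG and T98G and 47.6% between T98G and KALS-1. Between its ends, PDGFRA was 3939.5-fold higher in U-138MG than in KALS-1, with a 95% counting interval of 2202 to 7892 that rests on the 11 reads of KALS-1.

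KDR was present in SNU-1105 and U-87MG and at or near 0 in the other 6 lines. SNU-1105 had 59.5 and 99.0 CPM (1171 and 1978 reads) and U-87MG had 43.3 and 40.1 CPM (888 and 804 reads). Both libraries of SNU-1105 lay above those of U-87MG, and its own libraries were the farther apart. KALS-1 had 0.467 and 0.612 CPM (8 and 12 reads) and LN-18 had 0.366 and 0.611 CPM (7 and 12 reads). LN-229 had 5 and 3 reads of KDR and KNS-42 had 3 and 1. U-138MG had 0 and 3 reads and T98G had 0 and 1. No library of these 6 lines held more than 12 reads of KDR, and KNS-42, U-138MG and T98G held 3 or fewer in each library, the most that a count of 0 allows.

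Mean KDR was 79.2 ± 27.9 CPM in SNU-1105, 41.7 ± 2.27 CPM in U-87MG, 0.540 CPM in KALS-1 and 0.488 CPM in LN-18, and from 0.195 down to 0.0292 CPM in LN-229, KNS-42, U-138MG and T98G. KDR was called in 18 of 28 pairs of lines, beside a median of 16 pairs and 57.8% of all gene and pair combinations. SNU-1105 lay above U-87MG by 0.93 on the log2 scale (SE 0.29, edgeR adjusted p = 0.0103), which is under 2-fold and was not called, while 46.8% of tested genes were called for that pair. Without SNU-1105 replicate 1 that difference was 1.25 and was called (edgeR adjusted p = 0.00140), and without replicate 2 it was 0.51 (edgeR adjusted p = 0.170). With TMM scaling it was 1.16 and was called. U-87MG lay above KALS-1, the next line, by 6.25 (SE 0.42, edgeR adjusted p = 3.31e-10), where 67.7% of tested genes were called. No other pair of neighbours in the order of KDR was called, with edgeR adjusted p from 0.102 to 0.855. The first of these, LN-18 over LN-229 by 1.29, was called at 1.74 with TMM scaling. KDR was 146-fold higher in SNU-1105 than in KALS-1 and 162-fold higher than in LN-18. Against U-138MG the ratio was 1056 on 3 reads (95% counting interval 361 to 5122), and against T98G it was 2857 on 1 read (512 to 112865).

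**Figure D1:**
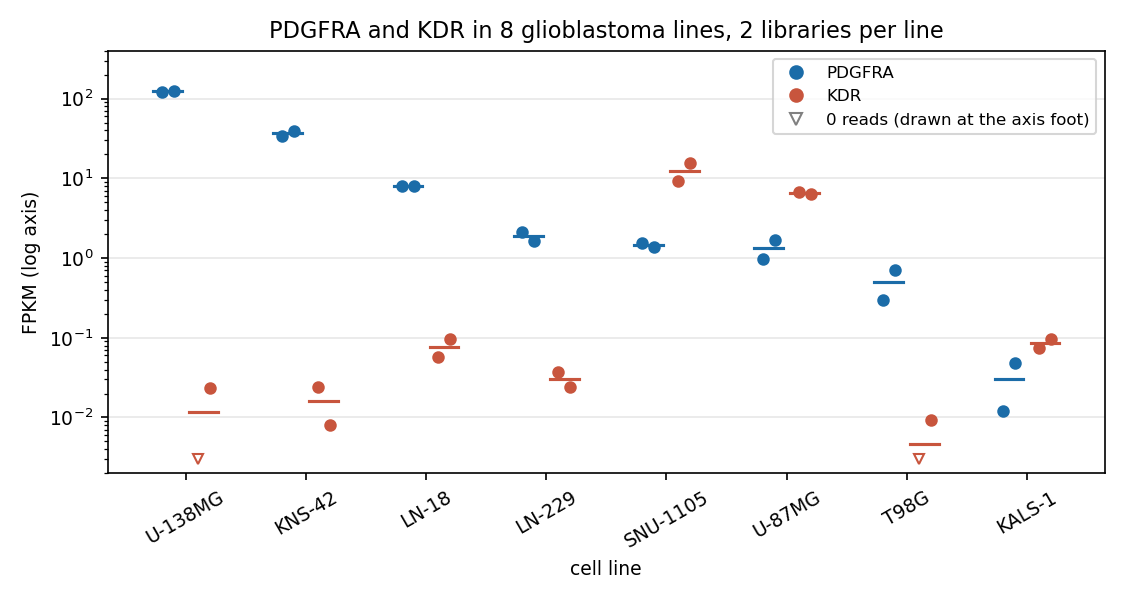
PDGFRA (blue) and KDR (red) in FPKM on a log axis for the 8 lines, ordered by PDGFRA. Points are the 2 libraries, bars their mean, and open triangles mark libraries with 0 reads. PDGFRA falls from about 124 FPKM in U-138MG to 0.0302 FPKM in KALS-1, and KDR is above 1 FPKM in SNU-1105 and U-87MG only.

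**Figure D2:**
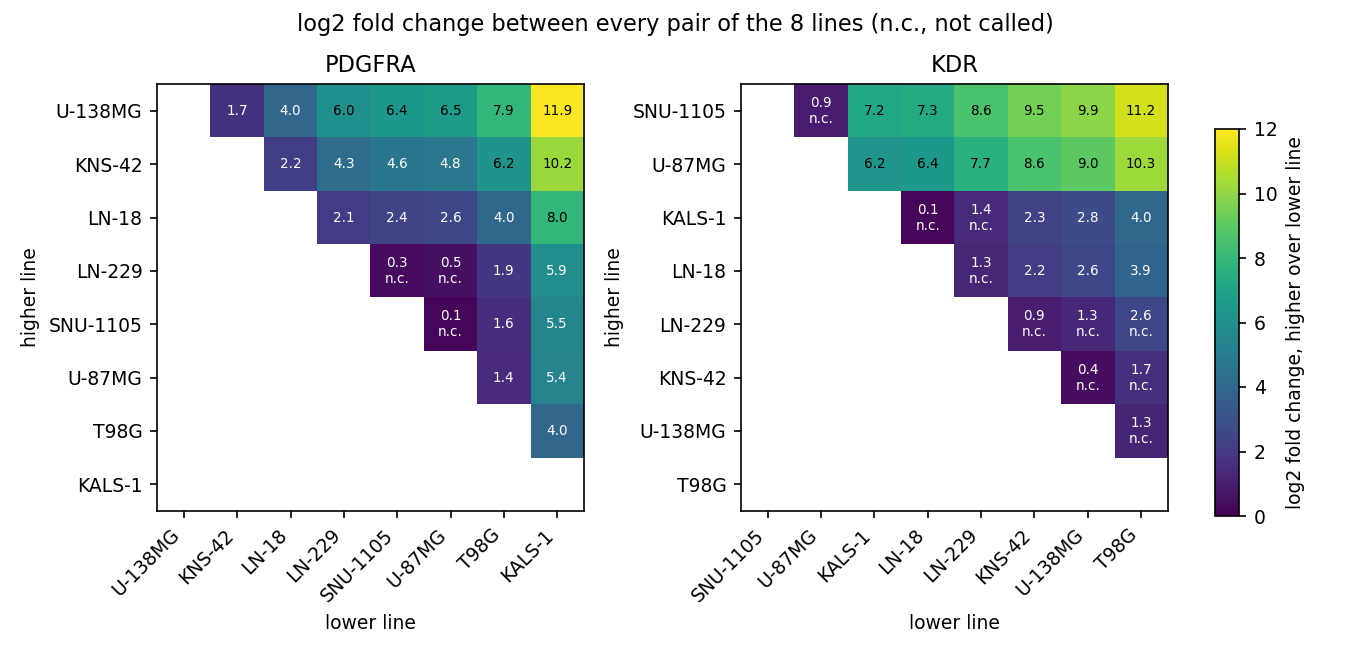
Fitted log2 fold change of PDGFRA (left) and KDR (right) for each of the 28 pairs of lines, with the higher line on the vertical and the lower line on the horizontal axis. Cells marked n.c. were not called, which held for 3 pairs of PDGFRA and 10 of KDR. The KDR values against U-138MG and T98G rest on 3 reads and 1 read.

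Levels of different genes were compared as FPKM, which divides reads by gene length as well as by the library total. PDGFRA stood above KDR in both libraries of 5 lines, U-138MG, KNS-42, LN-18, LN-229 and T98G, and KDR above PDGFRA in both libraries of the other 3. In U-138MG mean PDGFRA was 124 FPKM and KDR 0.0118 FPKM. The ratio of PDGFRA to KDR in FPKM was 2273 in KNS-42, 60.8 in LN-229, 104 in LN-18 and 109 in T98G, where PDGFRA itself was at 0.502 FPKM. These ratios rest on few KDR reads, 4 in KNS-42, 8 in LN-229, 19 in LN-18 and 1 in T98G. In the 2 libraries of KNS-42 the ratio was 1393 and 4928. In SNU-1105 KDR was at 12.5 ± 4.40 FPKM and PDGFRA at 1.47 FPKM, a ratio of 8.49. In U-87MG KDR was at 6.58 ± 0.358 FPKM and PDGFRA at 1.33 FPKM, a ratio of 4.93. KALS-1 had KDR above PDGFRA by 2.82, but at 0.0851 and 0.0302 FPKM, on 20 and 11 reads, so neither receptor had more than trace reads there. Which of PDGFRA and KDR was the higher in a line was the same with the deposited FPKM and with CPM. Across the 8 lines, log2(CPM + 1) of PDGFRA and KDR had a Pearson r of -0.25 and a Spearman rho of -0.33 (n = 8 lines, a description).

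EGFR, the receptor for EGF and TGF-alpha, was high in AM-38 and A-172 and at 1 and 3 reads in SNU-466. AM-38 had 454 and 469.6 CPM and A-172 had 346 and 351 CPM, against 0.0590 and 0.153 CPM in SNU-466. Both read counts of SNU-466 are within what a count of 0 allows. Mean EGFR was 462 ± 11.1 CPM in AM-38, 348 ± 3.97 CPM in A-172 and 0.106 ± 0.0663 CPM in SNU-466. The libraries of the 3 lines did not overlap. EGFR was lower in SNU-466 than in A-172 by 11.56 on the log2 scale (SE 0.13, edgeR adjusted p = 4.84e-80). Without SNU-466 replicate 1 this was 11.10 and without replicate 2 it was 12.38. AM-38 was 4222-fold above SNU-466, with a 95% counting interval of 1649 to 15497 on 4 reads. AM-38 lay above A-172 by 0.41 (SE 0.04, edgeR adjusted p = 1.17e-13), which was under 2-fold and was not called.

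AXL, the receptor for GAS6, was the only one of the 4 genes above 200 CPM in every library in which it was measured. AM-38 had 859 and 839 CPM, A-172 had 705 and 671 CPM and SNU-466 had 238 and 246 CPM. The order of the lines was that of EGFR, again with no overlap between libraries, but over a much narrower range. Mean AXL was 849 ± 14.2 CPM in AM-38, 688 ± 24.2 CPM in A-172 and 242 ± 5.74 CPM in SNU-466, a 3.51-fold range. AXL was higher in A-172 than in SNU-466 by 1.51 (SE 0.04, edgeR adjusted p = 1.04e-49) and higher in AM-38 than in SNU-466 by 1.81 (SE 0.04, edgeR adjusted p = 1.70e-55). AM-38 lay above A-172 by 0.30 (SE 0.04, edgeR adjusted p = 1.38e-10), which was not called.

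EGFR and AXL were both called for a difference among the 3 lines (edgeR adjusted p = 4.94e-82 and 1.35e-55), as were 98.3% of the 5035 tested genes. Each was called in 2 of 3 pairs, also the median of all tested genes, and 75.1% of all gene and pair combinations were called. Both were called lower in SNU-466 than in each other line, as were 45.8% of tested genes, so the direction was a common one in this table. By pair, 84.7% of tested genes were called between A-172 and SNU-466, 91.7% between AM-38 and SNU-466 and 48.8% between A-172 and AM-38.

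**Figure D3:**
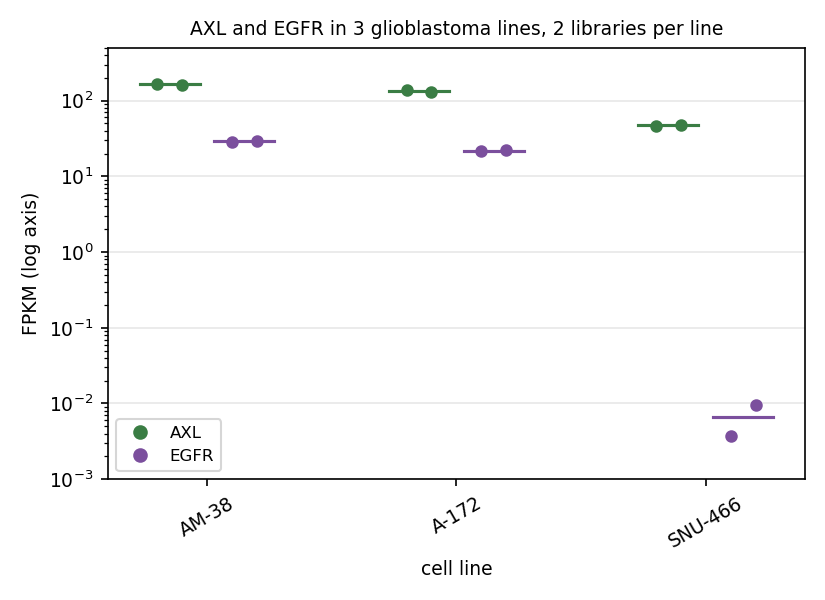
AXL (green) and EGFR (purple) in FPKM on a log axis for the 3 lines; points are the 2 libraries and bars their mean. AXL lies above EGFR in each line, and EGFR in SNU-466 is at 0.00664 FPKM, from 4 reads.

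Per length, AXL exceeded EGFR in both libraries of all 3 lines. Mean AXL was 165 FPKM in AM-38 and EGFR 28.97 FPKM, a ratio of 5.71. In A-172 they were 134 and 21.9 FPKM, a ratio of 6.13. In SNU-466 AXL was at 47.1 FPKM and EGFR at 0.00664 FPKM, a ratio of 7092 that rests on the 4 EGFR reads.

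Set among all receptor tyrosine kinases of the tables, PDGFRA had the highest mean FPKM in 5 of the 8 lines and AXL in 3 of 3. The table of the 8 lines lists 8 receptor kinases and that of the 3 lines 25, so a receptor outside them is not ranked. PDGFRA made up 89.4% of the summed FPKM of the 8 receptors in KNS-42, 83.5% in U-138MG, 88.5% in LN-18 and 79.5% in LN-229. In T98G it led at 0.502 FPKM, but its libraries overlapped those of EPHA5, an ephrin receptor at 0.264 FPKM. In U-138MG, EPHA5 at 11.8 FPKM and ALK, a receptor kinase mutated in neuroblastoma, at 9.20 FPKM came next. KDR led in U-87MG with 47.5% of the sum, above CSF1R, the receptor for CSF1, at 1.68 FPKM. In SNU-1105 KDR came second to EPHA5, at 12.5 against 16.8 FPKM. The libraries of these receptors did not overlap but came close, at 9.38 and 15.6 FPKM for KDR and 15.7 and 17.9 FPKM for EPHA5. In KALS-1 EPHA5 led at 0.884 FPKM, and the 8 receptors together reached 1.64 FPKM. AXL made up 60.2% of the summed FPKM of the 25 receptors in AM-38 and 52.7% in A-172, with MET, the receptor for HGF, next at 58.2 and 34.3 FPKM and EGFR after it in both. In SNU-466 AXL held 21.4%, and ERBB3, an EGFR family member with an impaired kinase, was close behind at 44.4 FPKM, followed by EPHB4 at 29.9 FPKM and FGFR3 at 21.9 FPKM. In CPM, which is not per length, ERBB3 led in SNU-466 with 520.3 CPM against 242 CPM for AXL, and the first receptor was the same in the other 2 lines and in all 8. The order of EGFR and MET changed, however. In CPM EGFR came second in AM-38 and A-172, at 462 and 348 CPM, above MET at 421 and 247 CPM.

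**Figure D4:**
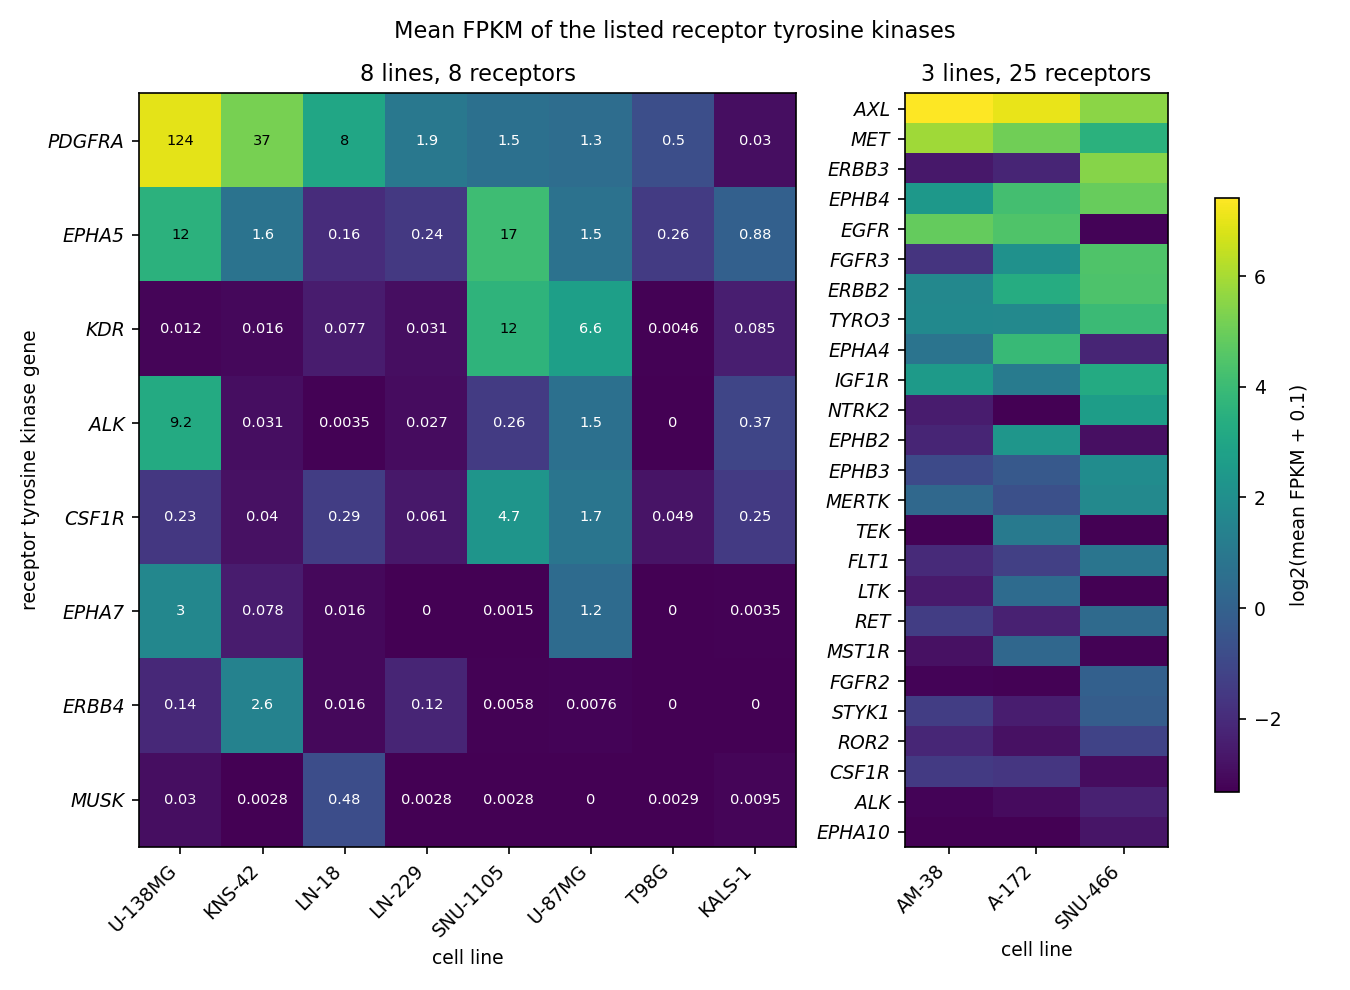
Mean FPKM of the receptor tyrosine kinases listed for the 8 lines (left, values printed) and the 3 lines (right), coloured as log2(mean FPKM + 0.1), with receptors ordered by their highest line. PDGFRA leads in 5 of 8 columns on the left and AXL in each column on the right, and EGFR is among the lowest receptors of SNU-466.

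Among the relatives of EGFR, ERBB2 and ERBB3 ran opposite to it in the 3 lines. ERBB3 had 44.1 and 44.7 FPKM in SNU-466, 0.101 and 0.136 FPKM in A-172 and 0.0805 and 0.0429 FPKM in AM-38. ERBB2, the co-receptor without a known ligand, was at 21.4 FPKM in SNU-466, 9.88 FPKM in A-172 and 3.16 FPKM in AM-38. Both were called higher in SNU-466 than in the other lines, as were 32.3% of tested genes. ERBB4, a neuregulin receptor listed for the 8 lines, was called highest in KNS-42, at 2.61 FPKM, as were 8.35% of tested genes. Of 5 EGFR family ligands in the 3 lines, TGFA was called highest in SNU-466 (34.99 FPKM, against 5.41 in AM-38 and 1.43 in A-172). The other 4, EREG, NRG1, NRG2 and NRG3, were called lowest there, a direction called for 45.8% of tested genes, with NRG1, a ligand of ERBB3 and ERBB4, at 0.408 FPKM in SNU-466, 2.10 in AM-38 and 3.16 in A-172. EREG and NRG3 were at 0 reads in SNU-466, and A-172 had only 3 and 1 reads of EREG and 4 and 2 of NRG3. The EREG reads of A-172 are within what a count of 0 allows. SNU-466 thus combined the lowest EGFR with the highest TGFA of the 3 lines. In the 8 lines EPGN and BTC, ligands of EGFR, were both called highest in U-138MG, at 1.23 and 2.17 FPKM, as were 4.25% of tested genes.

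Among the ligands of PDGFRA, PDGFA had an order of lines unlike that of its receptor. PDGFA was at 37.8 and 30.6 FPKM in LN-229 and at 17.6 and 16.9 FPKM in KNS-42. It was at 2.91 FPKM in U-138MG, where PDGFRA peaked, and at 2.36 FPKM in KALS-1, where PDGFRA was lowest. PDGFB was called highest in KALS-1, at a mean of 9.54 FPKM, as were 8.83% of tested genes. It was at 0.0126 and 0.0125 FPKM in U-138MG, from 1 read each, and at 0 reads in both libraries of U-87MG. KALS-1 thus had the most PDGFB and the least PDGFRA of the 8 lines. KNS-42 was the only line above 10 FPKM for both PDGFRA and PDGFA. CSF1R, a relative of PDGFRA in the class III receptor family, was called highest in SNU-1105, at 4.74 FPKM, as were 1.00% of tested genes. In the 3 lines all 4 PDGF genes are listed and called: PDGFA and PDGFB were highest in SNU-466 (41.2 and 35.7 FPKM), PDGFC in AM-38 (85.4 FPKM) and PDGFD in A-172 (5.33 FPKM). Of all tested genes, 32.3% were called highest in SNU-466, 19.5% in AM-38 and 13.2% in A-172.

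Among the partners of KDR, the co-receptors NRP1 and NRP2, which bind VEGF beside it, were also high in the lines with KDR. NRP1 was at 68.4 and 72.8 FPKM in U-87MG and at 40.9 and 40.1 FPKM in SNU-1105, and U-138MG, with almost no KDR, had 36.7 and 41.0 FPKM. NRP2 was at 62.0 and 56.9 FPKM in SNU-1105 and at 29.9 and 40.3 FPKM in U-87MG, with KNS-42 next at 25.4 FPKM. Both were called lowest in LN-18, at 5.86 and 0.415 FPKM, as were 2.82% of tested genes. NRP1 thus spanned a far narrower range than KDR. In the 3 lines the VEGF genes differed in their order: VEGFA was called highest in SNU-466 (21.6 FPKM) and VEGFC in A-172 (34.8 FPKM). FLT1, a VEGFA receptor, was called highest in SNU-466 at 1.72 FPKM. The shares of tested genes called highest in SNU-466 and in A-172 were 32.3% and 13.2%.

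Among the relatives of AXL, TYRO3 and MERTK, the other 2 TAM receptors, were both called highest in SNU-466, where AXL was lowest, as were 32.3% of tested genes. TYRO3 was at 15.8 FPKM in SNU-466 against 3.36 in AM-38 and 3.17 in A-172, and MERTK at 3.23 against 1.12 and 0.510 FPKM. AXL still exceeded both in every line. PROS1, a ligand of TYRO3 and MERTK listed for the 8 lines, ranged from 19.3 FPKM in U-138MG to 1.34 FPKM in T98G.

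**Figure D5:**
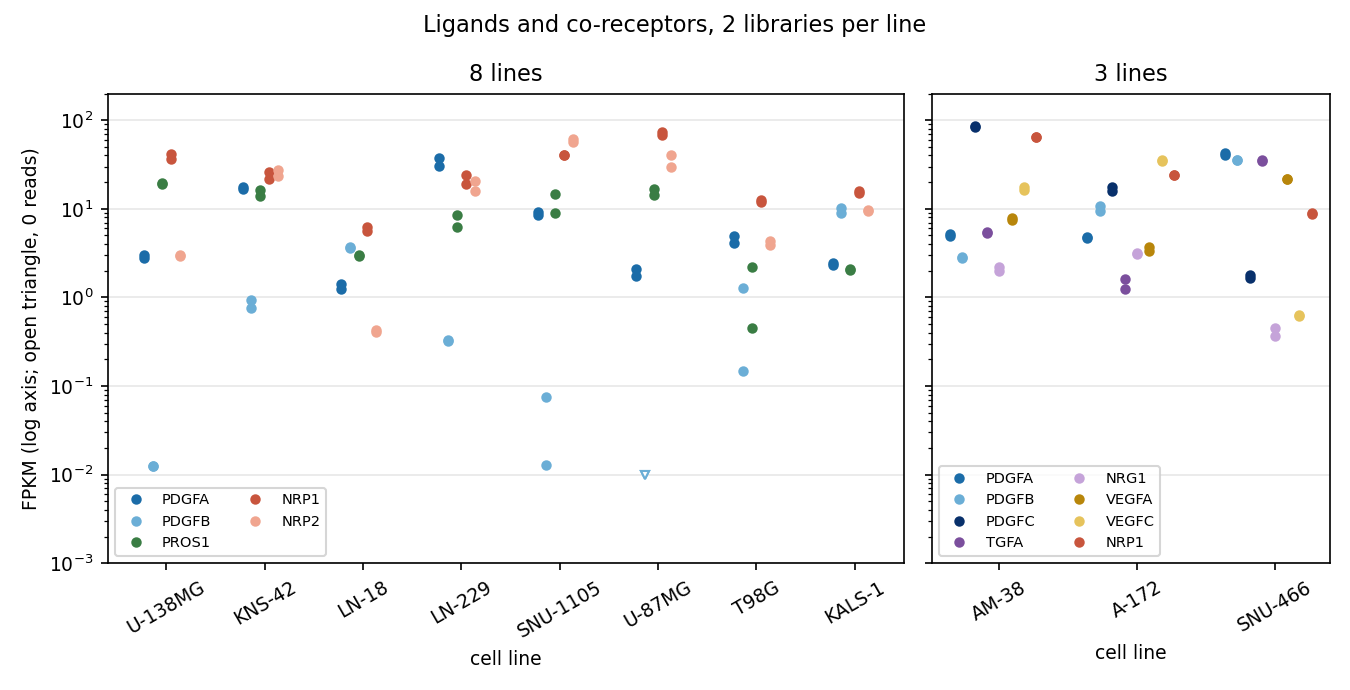
Ligands and co-receptors of the 4 receptors in FPKM on a log axis, with each library as a point and open triangles for 0 reads, in the 8 lines (left) and the 3 lines (right). PDGFB is highest in KALS-1 among the 8 lines, and TGFA is highest in SNU-466 among the 3.

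Genes downstream of the receptors were listed in part. The lists of inhibitors and of output genes share members, so their counts are not separate. DUSP5 and DUSP6 in the 3 lines and SPRY2 in the 8 lines are among the shared genes. Of 12 listed inhibitors of receptor kinase signalling in the 3 lines, all 12 were called for a difference, as were 98.3% of tested genes, and 9 were called lowest in SNU-466, as were 45.8%. ERRFI1, an EGFR-binding inhibitor, was at 173 FPKM in AM-38, 50.5 in A-172 and 9.57 in SNU-466, the same order as EGFR. Of 9 MAP kinase output genes, 5 were called lowest in SNU-466, against 45.8% of all tested genes, among them DUSP5, an ERK phosphatase (1.84 FPKM, against 69.5 in AM-38 and 4.97 in A-172), whereas EGR1 was called highest there (176 FPKM). DUSP6, another ERK phosphatase, was at 21.6 FPKM in SNU-466, 12.5 in AM-38 and 3.82 in A-172. Of 12 adaptors and effectors, 5 were called highest and 3 lowest in SNU-466, where these shares were 32.3% and 45.8% of all tested genes. In the 8 lines, 4 inhibitors, 3 output genes and 6 adaptors were tested and all were called for a difference, as were 99.7% of tested genes. SPRY2, a RAS pathway inhibitor, was highest in LN-229 (79.8 FPKM) and lowest in LN-18 (4.01 FPKM). GAB2, an adaptor of receptor kinases, stood at 12.7 FPKM in LN-229 and 10.9 FPKM in KNS-42 against 0.354 to 1.40 FPKM in the other 6 lines.

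The genes most like PDGFRA over the 8 lines, by Pearson r of log2(CPM + 1) line means among 1179 genes that reached 10 CPM in a line, were GAS2L1 (0.89), CDHR3 (0.88), NAP1L3 (0.87), PRSS12 (0.87) and MRGPRF (0.84). Those most like KDR were AGTR1 (0.98), CHI3L1 (0.98), CSF1R (0.97), TNIP3 (0.94) and SLC24A2 (0.93). CHI3L1, a secreted glycoprotein used as a glioma marker, was at 455 CPM in SNU-1105 and 122 CPM in U-87MG, the next line. No gene reached an r of 0.9 with PDGFRA and 1.02% of those ranked did with KDR. With 2 high lines among 8, such an r mainly says that a gene is high in the same lines.

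Of the genes within 1 Mb of the PDGFRA start, LNX1, an E3 ubiquitin ligase gene 528 kb before it, was likewise highest in U-138MG, at 93.4 CPM, with U-87MG next at 14.6 CPM. SRD5A3, a steroid reductase family gene 221 kb from the KDR start, was highest in U-138MG (17.98 CPM) and next in U-87MG (12.5 CPM), and KDR at 0 and 3 reads in U-138MG did not share that order. CRACD, 923 kb from KDR, was highest in LN-229 (48.0 CPM). Near EGFR, all 4 listed genes, LANCL2, VOPP1, PSPHP1 and ZNF713, were highest in SNU-466 and lowest in AM-38, the reverse of EGFR. These orders are of mean CPM, with no minimum fold. VOPP1, for example, had 211 CPM in SNU-466, 156 in A-172 and 56.5 in AM-38. Of 16 listed genes near AXL, 6 were highest in SNU-466, 6 in AM-38 and 4 in A-172, and 10 were lowest in SNU-466. The share of all genes with such orders of means was not counted. By the stricter rule for a call, 32.3% of tested genes were highest in SNU-466, 45.8% lowest there and 11.0% lowest in AM-38. Without the like share, the counts near EGFR and AXL cannot tell whether neighbours differ from other genes of the table. CYP2S1, a cytochrome P450 gene whose start is 26.2 kb away, had 7.98 CPM in A-172, 4.12 in AM-38 and 0.0295 in SNU-466. TGFB1, 135 kb away, had 200.2 CPM in A-172, 119 in AM-38 and 58.3 in SNU-466.

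Markers of the labelled and of other cell types were listed in part. Of 13 glial and neural markers, SOX2 and VIM are listed for the 8 lines, with summed levels of 239 to 1298 FPKM, and 7 for the 3 lines. SOX2 was at 319 FPKM in KNS-42, 43.3 in LN-229, 42.2 in SNU-1105 and 1.04 in KALS-1, and at 9 reads or fewer in each library of the remaining 4 lines, where the sum was nearly all VIM. The 7 summed to 1180 and 1187 FPKM in SNU-466, 105 and 108 FPKM in A-172 and 92.7 and 94.2 FPKM in AM-38. S100B (958 FPKM) and SOX10 (137 FPKM) were called highest in SNU-466, the line with EGFR at trace reads. Most of the sum in SNU-466 was S100B. SOX9 was at 0.0419 FPKM in SNU-466, against 47.5 in A-172 and 67.1 in AM-38. ALDH1L1 of the same list was called highest in AM-38, as were 19.5% of tested genes. It was at 1.46 FPKM in AM-38 and 0.0194 FPKM in SNU-466. GFAP reached 3.41 FPKM in SNU-466 and at most 0.124 FPKM in a library of the other 2, and OLIG1 was at 0 reads in both A-172 and AM-38. Of 13 pericyte and fibroblast markers, 8 are listed for the 3 lines and summed to 1526 and 1541 FPKM in SNU-466, 82.2 and 80.8 FPKM in A-172 and 37.3 and 36.4 FPKM in AM-38. COL1A2, a collagen gene of fibroblasts, gave 944 FPKM of the level in SNU-466. Of the 8, 6 were called highest in SNU-466, as were 32.3% of tested genes, among them MCAM and ACTA2. These were at 214 and 68.9 FPKM in SNU-466, 7.72 and 4.44 FPKM in A-172 and 0.173 and 20.3 FPKM in AM-38. RGS5 and NOTCH3 of the same list were higher in A-172, at 6.23 and 11.6 FPKM, than in SNU-466, at 0.134 and 0.0813 FPKM. AM-38 had 0.325 FPKM of RGS5 and 0.0179 FPKM of NOTCH3. The part of the markers in the low EGFR of SNU-466 was not tested. Of 14 endothelial markers, EMCN alone is listed for the 8 lines, and it was at 0.0295 and 0.0484 FPKM in SNU-1105 and 0.00943 and 0.00965 FPKM in U-87MG, the lines with KDR. EMCN was highest in KALS-1, at 3.35 and 3.14 FPKM, where KDR was at trace reads. Of 8 immune cell markers, 4 are listed for the 8 lines and summed to 5.25 and 4.46 FPKM in SNU-1105, nearly all of it CSF1R, against 6.67 and 7.29 FPKM in KALS-1.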

How the data were processed

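Untreated cells of 11 glioblastoma lines were profiled by RNA-seq, with 2 libraries per line. The authors deposited raw read counts and FPKM per gene and library, with the gene length. The submitters' processing notes name HISAT2 2.2.1, StringTie 1.3.3, HTSeq 0.6.0, cutadapt 1.9.1 and FastQC 0.10.1 and the hg38/GRCh38 build, without saying what each did, and per the labels' protocols the poly(A) libraries kept strand (reverse). The annotation release and the choice of genes in each table are not given in the sources used here.

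Each library total was worked back from reads, length and FPKM as the median over genes of 20 FPKM and 200 reads or more. With it, at least 99.9% of the deposited FPKM were matched to 0.01. Listed genes took up 5.81% to 10.2% of a total in the 8 lines and 21.8% to 37.1% in the 3 lines. CPM and FPKM in the text are reads over that total, and over length for FPKM. The tables were fitted apart with the edgeR 4.0.16 quasi-likelihood test, 1 coefficient per line, after a low-count filter that left 2095 and 5035 genes, among them all 4 receptors. For each gene the spread between libraries was estimated over all lines of a table together, so every line enters each SE. All pairs of lines were compared, with p-values adjusted over all genes and pairs. Each SE is the log2 fold change over the square root of F. Alternatives were TMM and RLE scaling, summed listed reads as library size, no filter, DESeq2 1.42.0, limma 3.58.1 (log2 CPM, prior count 2), a replicate block, no minimum fold, each library left out and, chosen after seeing the data, T98G left out.

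The 4 receptors and the gene lists were chosen with earlier results of these data known. Beside the 4, the text names at most 4 genes per list by highest line mean and all listed receptors and ligands of their families. It also names the 5 genes most like PDGFRA and like KDR, and tested genes within 1 Mb. GFAP, OLIG1, ALDH1L1, RGS5 and NOTCH3 were named after their values were seen. 1 gene that the rule names is not reported here. Promoter sequences are from RefSeq (GRCh38.p14), where all 4 receptors matched, and gene positions from GENCODE 29. The fit was tested on simulated counts. R 4.3.3, Python 3.11.15 and matplotlib 3.10.9 were used.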

Additional observations from a re-analysis of the deposited data

How the results depend on the processing

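All alternatives kept the counts of pairs called for PDGFRA, KDR, EGFR and AXL within 1.5 times the reported ones, and which of the 2 receptors followed in a line was the higher was the same with deposited FPKM and CPM. Among all listed receptors the first by FPKM was also first by CPM in 8 of 8 and 2 of 3 lines, and in SNU-466 it was ERBB3 (520.3 CPM) in place of AXL, a comparison chosen after seeing the data. Without T98G there are 21 pairs in place of 28, for PDGFRA and KDR alike. The pairs called ranged from 18 (of 21, without T98G) to 25 for PDGFRA, from 14 to 21 for KDR and from 2 to 3 for EGFR and AXL. With 1 library left out they ranged from 24 to 25 for PDGFRA and from 16 to 20 for KDR. Of 18 comparisons of neighbouring lines, 13 had the same call under all alternatives run, 5 did not, and none that was called changed direction. PDGFRA in U-87MG over T98G was not called with TMM (log2 difference 0.63, adjusted p = 0.0996), RLE (0.65) or DESeq2 (0.65). KDR in SNU-1105 over U-87MG was called with TMM (1.16), RLE (1.03), the sum of listed reads (1.06), DESeq2 (1.03) and no minimum fold. KDR in LN-18 over LN-229 was called with TMM (1.74), RLE (1.9), the sum of listed reads (1.66) and DESeq2 (1.94). EGFR and AXL in AM-38 over A-172 were called with no minimum fold. TMM factors ran from 0.669 in T98G replicate 1 to 1.23 in U-87MG replicate 2, which moves a log2 difference by up to 0.88, and the cause of the changed calls was not tested. The sum of listed reads, like the factors of TMM, RLE and DESeq2, comes from the listed genes. TMM, RLE and DESeq2 also take most of these genes as unchanged. Yet 99.3% of the genes listed for the 8 lines were at least 2-fold apart between 3 lines (T98G, LN-18, KALS-1) and the other 5. None of these scalings can thus decide these calls, and the main fit used the library totals alone.

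Same-numbered libraries showed no strong shared shift: the correlations of same-numbered deviations ran from -0.14 to 0.09 in the 8 lines and from -0.04 to 0.07 in the 3 lines. These values do not show whether same-numbered libraries were prepared together. With a replicate block, PDGFRA was called in 25 pairs, KDR in 18, EGFR in 2 and AXL in 2, and no neighbouring call changed.

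With 2 libraries per line, 1 library decided whether PDGFRA was called in U-87MG over T98G and KDR in SNU-1105 over U-87MG. KDR outside SNU-1105 and U-87MG, EGFR in SNU-466 and PDGFRA in KALS-1 were at 12 reads or fewer per library, so ratios against them are imprecise.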

Other observations

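Of the genes of all lists, markers included, 14 stand in both tables, which were fitted apart, so their ranges are set side by side without a test. NRP1, the KDR co-receptor, spanned 5.86 to 70.6 FPKM over the 8 lines and 8.85 to 64.4 FPKM over the 3 lines. PDGFA spanned 1.33 to 34.2 FPKM and 4.77 to 41.2 FPKM. PDGFB spanned 0 to 9.54 FPKM over the 8 lines and 2.84 to 35.7 FPKM over the 3 lines. GDNF, a ligand of the RET receptor complex, was highest in LN-229 (32.6 FPKM) of the 8 lines and in SNU-466 (31.9 FPKM) of the 3. EFNB2, an ephrin ligand of Eph receptors, was called highest in KNS-42, at 66.2 FPKM, as were 8.35% of tested genes, and lowest in T98G, at 0.0980 FPKM, as were 4.63%. SHC3, a neural adaptor of receptor kinases, was called highest in U-87MG, at 12.3 FPKM, with KNS-42 next at 0.727 FPKM; 5.82% of tested genes were called highest in U-87MG.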
